A study of Homo sapiens with 6 samples.

Results

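Genes of cellular iron handling, 10 in number, were compared in COV434 cells after exposure to 4HC, the active moiety of cyclophosphamide (CTX). The study describes COV434 as an immortalized line of human granulosa cells (GCs), and markers of that cell type are given below. The members were taken by symbol from the 16798 genes of the deposited gene table and were grouped by role as storage (FTL, FTH1), uptake (TFRC, SLC11A2, SLC39A14), export (SLC40A1), delivery and ferritin turnover (PCBP1, NCOA4) and the regulators that bind iron responsive elements (ACO1, IREB2). The 3 control samples carried the label WT and no treatment, and the 3 treated samples received 15 µM 4HC for 24 h per the labels. Both groups were the same cell line, a label that named the treatment stood in the field for genotype, and no vehicle for the control was given in the sources used here. Nothing in the labels said that the samples came from separate cultures, so p-values measure the spread between these samples, which may be technical.

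Most cells take up iron bound to transferrin through the transferrin receptor, and keep what they do not use inside ferritin, a shell of heavy chains that oxidise iron and light chains that help to lay down its mineral core. Iron regulatory proteins bind a hairpin in the RNA, the iron responsive element, when iron is scarce, which blocks translation of ferritin and ferroportin transcripts from the 5′ UTR and protects the transferrin receptor transcript from decay at the 3′ UTR. Free iron that is not stored can feed lipid peroxidation, the process behind ferroptosis, and the study asked about iron and ferroptosis in GCs exposed to 4HC.

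Sequences that match the element were located in coding GENCODE transcripts of GRCh38, to show which members carry the pattern. The pattern searched on the sense strand was a C, 5 bases, the loop CAGTGN and 5 bases that pair with the first 5, with G-T pairs allowed. It was found in 291 of 19669 coding genes (1.48%) and in 4 of the 10 members, FTL, FTH1, SLC40A1 and TFRC. Each site is shown with 6 bases on either side, and capitals mark the loop of 6 bases. The ferritin and ferroportin sites lie in the first exon, within the 5′ UTR, at chr19:48965341-48965357 on the plus strand (FTL), chr11:61967580-61967596 on the minus strand (FTH1) and chr2:189580667-189580683 on the minus strand (SLC40A1). The 4 TFRC sites lie within 533 bases of the 3′ UTR on the minus strand, at chr3:196050985-196051001, chr3:196050581-196050597, chr3:196050516-196050532 and chr3:196050469-196050485. SLC11A2 held no match to this pattern, and a match appeared in its 3′ UTR at chr12:50988274-50988291, on the minus strand, once 1 unpaired base was allowed in the last arm. That wider pattern was chosen after the first search, was met by 838 genes (4.26%) and also matched the 3′ UTR of IREB2. Matches of SLC39A14 to the wider pattern are not reported here, so the members named for it may not be the full list.
FTL: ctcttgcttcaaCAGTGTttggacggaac
FTH1: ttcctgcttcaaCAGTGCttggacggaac
SLC40A1: caacttcagctaCAGTGTtagctaagttt
TFRC site 1: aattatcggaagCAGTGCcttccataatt
TFRC site 2: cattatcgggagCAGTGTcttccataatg
TFRC site 3: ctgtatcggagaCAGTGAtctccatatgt
TFRC site 4: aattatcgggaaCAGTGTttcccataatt
SLC11A2: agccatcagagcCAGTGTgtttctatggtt

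The FTL and FTH1 windows differed at 3 of 29 bases (C1T, T4C and T18C, with the FTL base first and positions counted from the 5′ end of the window). No element pattern is read here as binding.

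In 4HC-treated cells both ferritin chains were higher, the transferrin receptor and the importer SLC39A14 were lower, and the regulator IREB2 and the chaperone PCBP1 were lower by smaller amounts. FTL showed the greatest fold among the 9 tested members, 1.59-fold, and TFRC the deepest drop, to 0.785 of control. Of the 9 tested members 6 had an adjusted p below 0.05 (edgeR quasi-likelihood test, Benjamini-Hochberg over 12368 genes), against 36.4% of all tested genes. The 2 higher members stood against a background of 19.2% of genes called higher, and the 4 lower members against 17.1% called lower. No member reached the study's criteria of a 2-fold change with an unadjusted p below 0.05 by edgeR or DESeq2, which 1.15% of tested genes did by edgeR, whereas 8 of the 9 had an unadjusted p below 0.05, against 44.5% of all tested genes. With the same criteria the study reported many more genes from its own DESeq2 analysis, and the reason for that difference was not tested. The middle log2 fold change was -0.10 for the tested members and 0.00 for all tested genes. In RNA from bulk cells, a change in RNA per cell cannot be told apart from a change in the mix of cells.

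**Figure D1:**
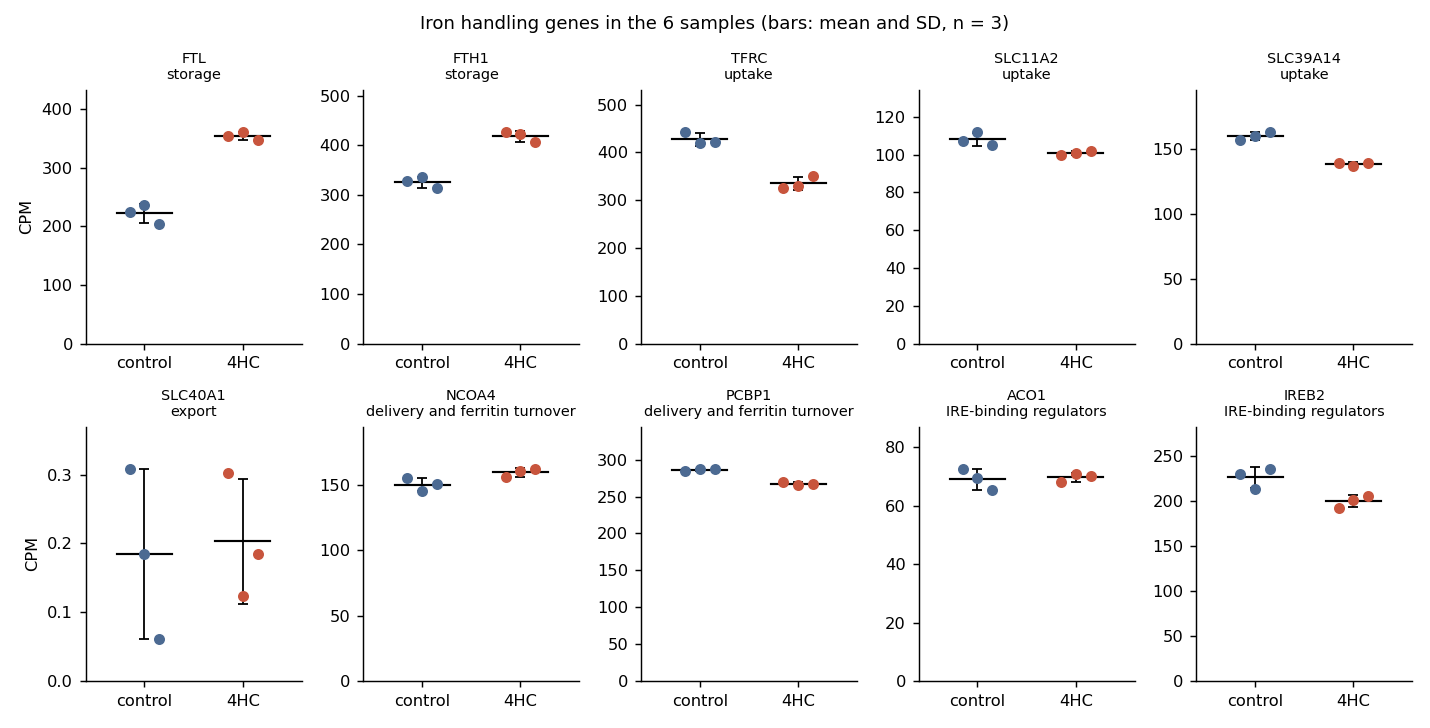
Normalised read count (CPM, counts scaled to library size with TMM factors) of the 10 iron handling genes in each of the 3 control (blue) and 3 4HC-treated (red) samples, with the mean and SD of each group, n = 3. Both ferritin genes lie above the control range in every treated sample and TFRC below it, and SLC40A1 lies under 0.31 CPM in all samples.

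The storage genes rose together, FTL by more than FTH1. FTL (NCBI Gene 2512, chr19:48965309-48966879 of GRCh38), the ferritin light chain, was at 225, 237 and 204 CPM in the control samples and at 354, 361 and 347 CPM in the treated samples. All 3 treated samples lay above all 3 control samples. Its log2 fold change was 0.67 ± 0.038 (SE), with a 95% confidence interval of 0.60 to 0.75 and an adjusted p of 5.89e-21. FTH1 (NCBI Gene 2495, chr11:61964285-61967634), the heavy chain with ferroxidase activity, was at 327, 336 and 314 CPM in control and at 427, 422 and 406 CPM after 4HC. These groups did not overlap either, and the log2 fold change was 0.36 ± 0.033 (SE), with a 95% interval of 0.29 to 0.43 and an adjusted p of 5.44e-13. On the per-length TPM scale, FTL went from 596 ± 41.3 to 943 ± 15.3 and FTH1 from 557 ± 14.8 to 711 ± 20.2 (SD, n = 3). The summed level of both chains was 1093 to 1203 TPM in control and 1616 to 1678 TPM after 4HC. The light chain thereby made up 50.4 to 52.6% of ferritin TPM in control samples and 56.5 to 57.3% in treated samples, and these ranges did not overlap. Both ferritin genes have processed pseudogene copies elsewhere in the genome, and the deposited FTH1 counts were fractional, so reads of FTH1 had been divided between features by the authors' estimation.

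The uptake genes were lower, of which TFRC and SLC39A14 passed the test. TFRC (NCBI Gene 7037, chr3:196018476-196082123), the receptor that brings transferrin-bound iron into the cell, was at 443, 419 and 421 CPM in control and at 326, 330 and 351 CPM after 4HC. Every treated sample lay below every control sample, with a log2 fold change of -0.35 ± 0.034 (SE), a 95% interval of -0.42 to -0.28 and an adjusted p of 2.54e-12. SLC39A14 (NCBI Gene 23516, chr8:22367278-22434129), a metal importer for iron that is not bound to transferrin, was at 157, 160 and 163 CPM in control and at 139, 137 and 139 CPM after 4HC. It fell without overlap of the groups, with a log2 fold change of -0.21 ± 0.037 (SE) and an adjusted p of 1.21e-05. SLC11A2 (NCBI Gene 4891, chr12:50952263-51028886), which carries ferrous iron out of endosomes into the cytosol, was at 107, 112 and 105 CPM in control and at 99.6, 101 and 102 CPM after 4HC. Its groups did not overlap, but the log2 fold change of -0.10 ± 0.041 (SE) had an adjusted p of 0.0558 and was not called. Under the alternatives its adjusted p ranged from 0.0409 to 0.205.

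SLC40A1 (NCBI Gene 30061, chr2:189560590-189583758), which encodes ferroportin, the iron exporter of the cell surface, was barely measured. It had 5, 3 and 1 counts in the control samples and 5, 2 and 3 counts in the treated samples. The counts overlapped and lay close to 3 counts, the limit that a count of 0 allows, which is 0.18 to 0.186 CPM here. It did not pass the filter on low counts, and a change in the exporter was not detectable at this depth. The comparison of storage with export could therefore not be made, and no fold is given for it.

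The members that deliver iron to ferritin or release it moved little. PCBP1 (NCBI Gene 5093, chr2:70087477-70089514), a chaperone that hands iron to ferritin, was at 285, 287 and 287 CPM in control and at 270, 266 and 267 CPM after 4HC. It fell by 0.10 ± 0.033 (SE) on the log2 scale, with an adjusted p of 0.0174. It was no longer called when control replicate 3 was left out (adjusted p = 0.0522), when 4HC replicate 2 was left out (0.0618) or when library size was the only scaling (0.0629). NCOA4 (NCBI Gene 8031, chr10:46004763-46030623), the cargo receptor that takes ferritin to the lysosome, was at 155, 145 and 151 CPM in control and at 156, 161 and 162 CPM after 4HC. The treated samples lay above the controls by a log2 fold change of 0.08 ± 0.038 (SE), with an adjusted p of 0.0732, and with library size as the only scaling the adjusted p was 0.0233.

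Of the iron regulatory proteins, IREB2 fell and ACO1 was not called. IREB2 (NCBI Gene 3658, chr15:78437431-78501453), which encodes the regulator that is degraded when iron is plentiful, was at 230, 213 and 235 CPM in control and at 192, 201 and 205 CPM after 4HC. Its groups did not overlap, with a log2 fold change of -0.18 ± 0.037 (SE) and an adjusted p of 8.8e-05. The counts of IREB2 were fractional, as were those of FTH1, while the other 8 members had whole counts in every sample. ACO1 (NCBI Gene 48, chr9:32384643-32454769), whose product is a cytosolic aconitase with an iron-sulphur cluster and an RNA-binding protein without it, was at 72.5, 69.4 and 65.3 CPM in control and at 68, 70.9 and 70.3 CPM after 4HC. These ranges overlapped, and the log2 fold change of 0.01 had a 95% interval of -0.08 to 0.11. In all, the groups did not overlap for 8 of the 9 tested members, against 45.3% of all tested genes.

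**Figure D2:**
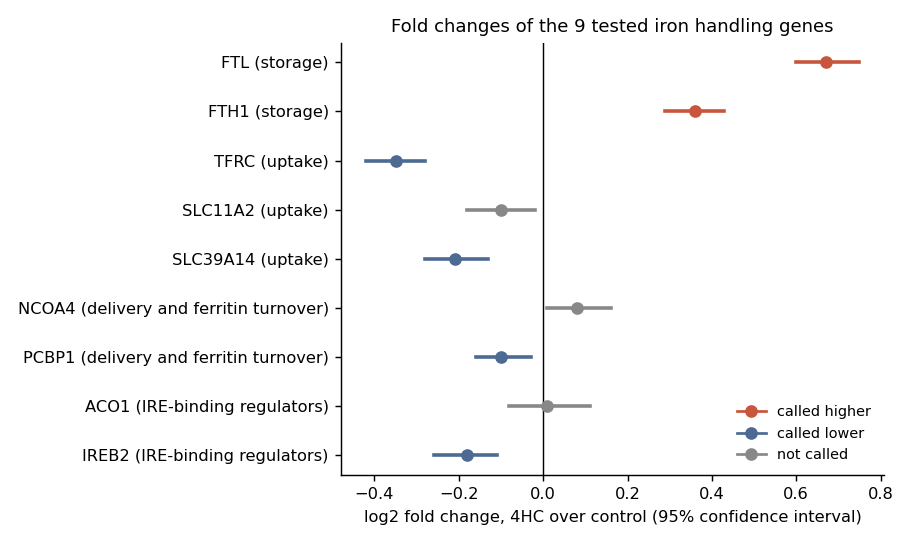
Log2 fold change of 4HC over control with its 95% confidence interval for the 9 tested iron handling genes, in order of role, from the edgeR fit over 3 against 3 samples. The storage genes lie to the right of 0 at 0.67 and 0.36, the uptake genes lie to the left, and the interval of ACO1 spans 0.

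The order of the members by TPM was the same in both groups. FTL was the most abundant, followed by FTH1, PCBP1, TFRC, NCOA4, IREB2, SLC39A14, SLC11A2, ACO1 and SLC40A1. In control cells the ranges of FTL (551 to 632 TPM) and FTH1 (541 to 571 TPM) overlapped. Within each control sample FTL lay slightly above FTH1, with FTH1 to FTL ratios of 0.923, 0.903 and 0.982. After 4HC the range of FTL (926 to 956 TPM) lay above that of FTH1 (690 to 730 TPM), with ratios of 0.77, 0.745 and 0.745. IREB2 (55 to 61.4 TPM) and SLC39A14 (56 to 58.8 TPM) also overlapped in control cells. TFRC stood at 144 ± 4.87 TPM in control and at 112 ± 4.55 TPM after 4HC (SD, n = 3), between PCBP1 (311 ± 2.45 and 289 ± 4.46) and NCOA4 (74.2 ± 2.81 and 78.3 ± 1.4).

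Storage was then set against uptake within each sample, as the log2 ratio of CPM of a pair of genes. Only the shift between groups is read from it, since CPM is not scaled to length. The log2 ratio of FTL to TFRC was -0.98, -0.82 and -1.05 in control and 0.12, 0.13 and -0.02 after 4HC. The groups were separate, and the ratio shifted by 1.02, which is 2.03-fold. FTH1 to TFRC went from -0.44, -0.32 and -0.42 to 0.39, 0.35 and 0.21, a shift of 0.71. FTL to FTH1 shifted by 0.31, from -0.55 ± 0.064 to -0.24 ± 0.027 (SD, n = 3). FTL to NCOA4, storage against the receptor for its breakdown, shifted by 0.59, from 0.56 ± 0.14 to 1.15 ± 0.047. ACO1 to IREB2 shifted by 0.20, from -1.71 ± 0.12 to -1.52 ± 0.023. For each of these 5 pairs the treated samples all lay above the controls, and the two-sided exact permutation p was 0.1, the smallest that 3 against 3 samples allow (0.12 after adjustment over the 6 pairs computed, which included FTL to SLC40A1). These ratios are not independent of the fold changes above.

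**Figure D3:**
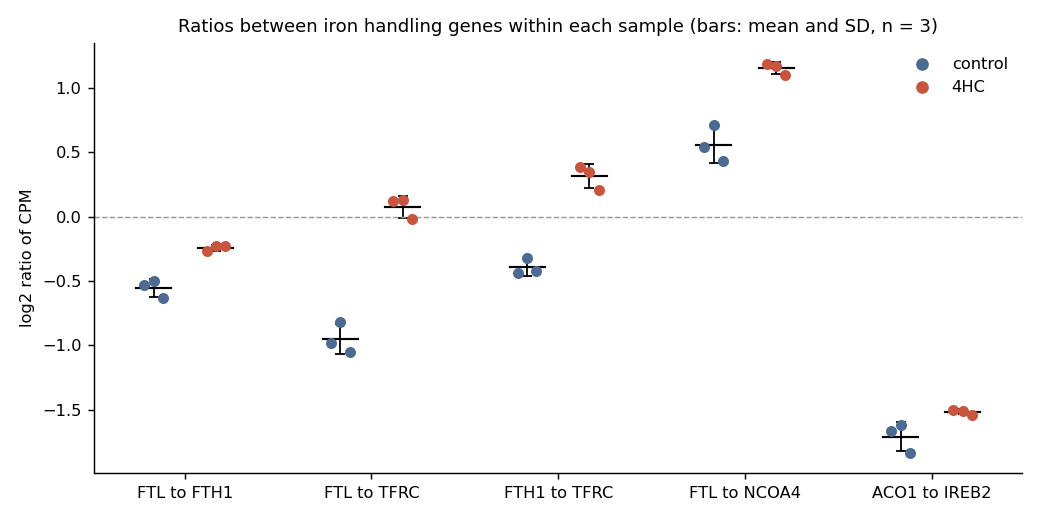
Log2 ratio of CPM for 5 pairs of iron handling genes in each control (blue) and 4HC-treated (red) sample, with the mean and SD of each group, n = 3. In every pair the treated points lie above the control points, and the shift is widest for FTL to TFRC, at 1.02.

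The deposited table of transcripts held 45 transcripts of the members, of which 32 were tested among 42216. Of these 2 were called higher, against 0.706% of all tested transcripts, and 3 lower, against 0.587%, so that 5 were called in either direction against 1.29%. FTL and FTH1 each had a single transcript, and both were higher, with adjusted p of 0.0111 and 0.0142. The main TFRC transcript, NM_001128148, held 94.2% of the gene's counts in control and fell by 0.34 on the log2 scale (adjusted p = 0.0183). SLC39A14 transcript NM_001128431, with 96.3% of the gene's counts in control, fell by 0.22 (adjusted p = 0.0297). Both higher calls held when control replicate 2 was left out, and at most 1 held when any other sample was. Of the lower calls 0 to 1 held with a sample left out.

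SLC11A2 had 13 listed transcripts, of which 9 were tested and 1 was called. Transcript NM_000617, which ends in the 3′ UTR that holds the element shown above, was at 378, 377 and 381 counts in control and at 270, 278 and 262 counts after 4HC. Every treated sample lay below the controls, with a log2 fold change of -0.49 ± 0.071 (SE) and an adjusted p of 0.0461. Leaving out any of the 6 samples raised the adjusted p to between 0.132 and 0.173. NM_001174128, matched to the same GENCODE transcript with the element and the most abundant SLC11A2 transcript at 35.9% of the counts in control, was at 640, 642 and 620 counts in control and at 615, 614 and 660 counts after 4HC. These ranges overlapped, and its log2 fold change was -0.01 ± 0.054 (SE, adjusted p = 0.996). Transcript NM_001174127, whose 3′ end lacks the element, went from 317, 368 and 327 counts to 415, 447 and 393 counts and was not called (log2 fold change 0.31 ± 0.093 SE, adjusted p = 0.26). Summed over the 4 transcripts whose GENCODE match holds the element, counts were 1059, 1064 and 1056 in control and 975, 963 and 955 after 4HC. Over the 3 matched transcripts without it they were 523, 594 and 563 in control and 576, 608 and 627 after 4HC, and these ranges overlapped. The share with the element, among matched counts, was 66.9, 64.2 and 65.2% in control and 62.9, 61.3 and 60.4% after 4HC. It differed by -3.92 percentage points between the group means without overlap (two-sided exact permutation p = 0.1, the smallest possible). This split was chosen after the transcript values had been seen. Reads are divided between transcripts by estimation, and 6 further transcripts with 129 to 159 counts in control and 68 to 101 after 4HC could not be matched to GENCODE.

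Genes next to the members were examined, since nearby or overlapping genes can share reads or signal. BAX, a pro-apoptotic BCL2 family gene that ends 2677 bp before FTL, was at 108, 112 and 116 CPM in control and at 168, 172 and 169 CPM after 4HC. It rose by a log2 fold change of 0.60 ± 0.039 (SE) with an adjusted p of 1.32e-18, close in size to FTL. On the other side GYS1, glycogen synthase of muscle, 1251 bp from FTL, fell by 0.19 ± 0.045 (SE) with an adjusted p of 0.000536. BEST1, which overlaps FTH1, was at 1.35 to 1.73 CPM in control and 1.41 to 1.85 CPM after 4HC and was not called. The uncharacterised LOC105374301 overlaps TFRC in the deposited coordinates and stood at 13.7 to 15.2 CPM in control and 11.8 to 15.5 CPM after 4HC (not called). TIMM23, a subunit of the mitochondrial import pore 1021 bp from NCOA4, fell by 0.16 ± 0.046 (SE) with an adjusted p of 0.00473, which was 0.065 without control replicate 1. LETMD1, 19334 bp from SLC11A2, rose by 0.18 (adjusted p = 0.00167). HYKK beside IREB2, DDX58 beside ACO1, PPP3CC beside SLC39A14 and RAB3IL1 near FTH1 were tested and not called, and HIGD1C, METTL7A, PIWIL2 and ASPRV1 were too low to test.

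Promoters were read from RefSeq (GRCh38.p14, 250 bases before to 50 after the start), which listed 13 promoters for 8 of the 10 members, all but FTH1 and SLC39A14. The motif ACGTG, the core of the hypoxia response element, was searched on both strands and occurred in the promoters of FTL and TFRC and in 21.4% of all 35116 promoters. In the windows below, capitals mark the match, at chr19:48965298-48965302 for FTL, where it lies on the opposite strand, and at chr3:196082174-196082178 for TFRC.
FTL promoter: agccgccctagcCACGTcccctcgcagtt
TFRC promoter: cctcgcgagcgtACGTGcctcaggaagtg

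The match began 11 bases before the start in FTL and 88 bases before it in TFRC, members that moved in opposite directions. The antioxidant response element core TGACNNNGC, on either strand, was found for NCOA4 and PCBP1 and in 13.3% of all promoters. The E-box CACGTG, which contains the ACGTG motif, was found in none of the 13 and in 7.26% of all promoters.

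Wider lists of iron genes, from which the 10 members were left out, gave 72 tested genes, of which 18 rose and 8 fell. That is 36.1% called, next to 36.4% of all tested genes, and their median change was 0.01 on the log2 scale. DESeq2 left 5 of these genes lower, as did leaving out control replicate 3.

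Among 13 tested genes of uptake and reduction, 2 rose and 2 fell (median -0.03). SLC22A17, a receptor for siderophore-bound iron, rose from 8.69, 8.99 and 9.05 CPM to 13.9, 11.8 and 14.1 CPM (log2 fold change 0.58, adjusted p = 4.11e-06). LRP1, which takes up heme with its carrier hemopexin, rose by 0.34 (adjusted p = 1.07e-09). PICALM, a clathrin adaptor for the transferrin receptor, fell by 0.13 (adjusted p = 0.00254). TMPRSS6, a protease of hepcidin control, was near 1 CPM and went from 1.45 ± 0.082 to 0.816 ± 0.195 CPM (SD, n = 3), with an adjusted p of 0.021. TMPRSS6 no longer passed when control replicate 1 (0.0534), control replicate 3 (0.062) or 4HC replicate 1 (0.123) was left out. Transferrin itself (TF) was at 15 to 15.6 CPM in control and 14.9 to 15.1 CPM after 4HC and was not called.

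In the list of export and systemic control 5 of 11 genes could be tested, and 2 rose (median 0.09). ERFE, the hormone erythroferrone that lowers hepcidin in the body, rose from 6.66, 5.72 and 6.64 CPM to 13.8, 13.1 and 11.8 CPM. Its log2 fold change was 1.02 ± 0.11 (SE), with an adjusted p of 3.66e-11. FURIN, a proprotein convertase, rose by 0.15 (adjusted p = 0.00419). The ferroxidases CP and HEPH, partners of ferroportin, lay under 1 CPM in every sample.

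Among the 14 tested genes of storage, chaperones and control of the regulators, 3 rose and 1 fell (median -0.00). FBXL5, the iron-sensing ubiquitin ligase subunit that marks IREB2 protein for destruction, rose from 96.9, 93.5 and 94.4 CPM to 120, 123 and 129 CPM. The groups were separate, with a log2 fold change of 0.39 ± 0.041 (SE) and an adjusted p of 5.56e-11. PCBP4, a relative of PCBP1, rose by 0.39 (adjusted p = 4.46e-10), and GABARAP, an autophagosome protein, by 0.22 (adjusted p = 1.1e-05). TAX1BP1, an adaptor for NCOA4-driven ferritin breakdown, fell by 0.10 with an adjusted p of 0.0454, and the count of lower genes in this list was 0 to 2 under the alternatives. PCBP2 was at 463 to 469 CPM in control and 452 to 486 CPM after 4HC and was not called.

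Of 24 tested genes of mitochondrial iron and iron-sulphur assembly, 6 rose and 2 fell (median 0.02). FDXR, ferredoxin reductase, which passes electrons to ferredoxin for cluster and steroid synthesis, was at 84.4, 89.7 and 86.5 CPM in control and at 225, 222 and 203 CPM after 4HC. With a log2 fold change of 1.32 ± 0.041 (SE) and an adjusted p of 7.24e-32, it had the greatest change of the iron lists. ISCU, the scaffold on which clusters are built, rose from 104, 107 and 105 CPM to 148, 148 and 147 CPM (log2 fold change 0.49, adjusted p = 2.27e-15). NUBPL, an assembly factor of complex I, fell by 0.31 (adjusted p = 0.00154). FDX1, IBA57, BOLA1 and ABCB10 also rose and HSPA9 fell, by at most 0.30 in either direction. Only 3 of the list rose without control replicate 2 or without 4HC replicate 2, and 2 rose by DESeq2. In the cytosolic assembly list 3 of 9 rose, NUBP2 by 0.26, NDOR1 by 0.19 and CIAO2A by 0.18, and CIAO1 and CIAPIN1 fell by 0.12 and 0.11. NDOR1 did not pass when control replicate 3 was left out (adjusted p = 0.0707).

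Other transcripts known to carry an iron responsive element gave 2 higher and 1 lower of 7 tested (median -0.02). PRNP, the prion protein, rose by 0.39 (adjusted p = 0.000187). ALAS2 and EPAS1, which carry the element in the 5′ UTR, lay under 1 CPM in every sample.

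**Figure D4:**
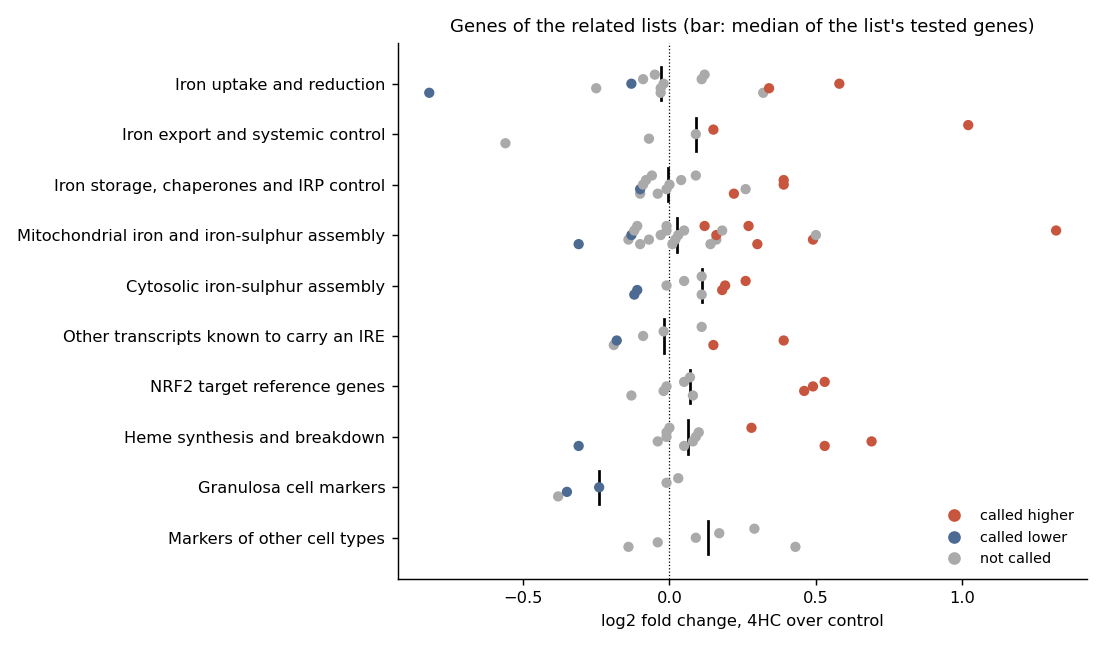
Log2 fold change of 4HC over control for each tested gene (point) of the lists of related genes and of cell markers, with the median of each list as a bar; red points were called higher, blue points lower and grey points were not called. FDXR at 1.32 and ERFE at 1.02 stand farthest to the right, and the medians of the iron lists lie between -0.03 and 0.11.

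Ferritin genes and heme oxygenase belong to the reference targets of NRF2, the transcription factor of the oxidative stress response, so that list was read beside them. Of 9 tested genes 3 rose (median 0.07), so that 33.3% were called by edgeR, next to 36.4% of all tested genes. None fell by edgeR or DESeq2 or had an unadjusted p below 0.05 for a decrease. HMOX1 (heme oxygenase, HO-1), which releases iron from heme, was at 21.4, 26.2 and 24 CPM in control and at 34.2, 36.2 and 32.7 CPM after 4HC. It rose by 0.53 ± 0.066 (SE) with an adjusted p of 4.31e-09, between the changes of FTH1 and FTL. NQO1, a quinone reductase, rose by 0.46 (adjusted p = 6.61e-08). The study counted HO-1 and NQO1 among its differentially expressed genes, while here neither reached 2-fold (1.44-fold for HMOX1 and 1.37-fold for NQO1). OSGIN1, at 2.65 to 2.96 CPM in control, rose by 0.49 with an adjusted p of 0.0195. It did not pass by DESeq2 (0.0957), or when control replicate 2 (0.0697) or 4HC replicate 1 (0.0786) was left out. The glutathione genes GCLC, GCLM and SLC7A11, and SRXN1 and TXNRD1, had log2 fold changes between -0.13 and 0.08 and were not called. In the heme list, BLVRB, which reduces biliverdin, rose by 0.69 (adjusted p = 2.12e-16) and BLVRA rose by 0.28, out of 12 tested.

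The genes most like FTL in their 6 values, by the Euclidean distance of centred log2 CPM among 10272 genes, were FAM83H, MRPL49 and GAMT, with distances of 0.0727, 0.0881 and 0.114 and log2 fold changes of 0.70, 0.65 and 0.69. Those most like TFRC were RPF2, FNBP1L and PCOLCE2, with distances of 0.0241, 0.0432 and 0.0538 and log2 fold changes between -0.36 and -0.35. These genes were picked for that likeness, so their changes are given as a description.

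The samples held 16133786 to 16702316 counts each, of which the 10 members took 0.193 to 0.199% in control and 0.206% after 4HC, and the first principal component (53.4% of the variance) separated the groups. Of 13 granulosa cell markers, 8 were under 1 CPM in every sample, among them FOXL2, FSHR, CYP19A1, NR5A1 and GATA4. The labelled cell type thus lacked most of its defining markers. The chromatin ATPase SMARCA2 lay under 0.25 CPM in all samples, and SMARCA4 was at 25.2 ± 2.8 CPM in control and 22.4 ± 1.15 CPM after 4HC (SD, n = 3). Of the 5 tested markers WT1 fell by 0.35 and KITLG by 0.24 on the log2 scale, and AMH, HSD17B1 and INHA were not called and overlapped between groups. The summed level of the list, most of it WT1 and KITLG, was 360 to 376 CPM in control and 296 to 301 CPM after 4HC. The part of the WT1 and KITLG difference in the ferritin and TFRC changes was not tested. Markers of other cell types summed to 66.7 to 72.6 CPM in control and 67 to 73.7 CPM after 4HC. Of these 13 markers 5 were above 1 CPM in every sample, against 4 of the 13 granulosa cell markers. Most of the sum was DCN, a fibroblast marker (mean 48 CPM in control), and ZP3, an oocyte marker (14 CPM). None of the 6 tested was called by edgeR or DESeq2 or had an unadjusted p below 0.05.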

How the data were processed

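Total RNA of 6 COV434 samples was sequenced by MGI/BGI. The authors filtered reads with SOAPnuke, and the submitters' processing notes name HISAT2, Bowtie2, RSEM 1.3.1 and DESeq2 with build GRCh38.p13. The deposited tables hold expected counts of 16798 genes and 79213 transcripts, not normalized, of which 85.5% of the gene values were whole within 1e-06. The authors also deposited TPM, scaled to length and to the same sum in each sample, and FPKM, scaled to length and depth. Samples were grouped by title. Columns of the authors' own comparisons were not used.

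Expected counts were rounded, filtered with filterByExpr (12368 genes and 42216 transcripts kept), scaled by TMM and tested with the quasi-likelihood test of edgeR 4.0.16 in R 4.3.3, with condition as the only term. Alternatives used DESeq2 1.42.0 and limma 3.58.1. Ratios and shares were tested by exact two-sided permutation (scipy 1.17.1). Totals were 16133786 to 16702316 counts, and intervals from counts cover counting error and the spread between samples as modelled. Before use, the fit was checked on simulated counts. Elements were searched in GENCODE 29, whose strand was used, since 5002 of 16266 matched genes have the other strand in the deposited table. Genes with a deposited span over 5000000 bp were left out as neighbours.

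The members and all gene lists were chosen with earlier results of these data known. Named were all members, up to 3 called genes with the largest change in each list, neighbours within 50 kb, HMOX1, NQO1, and the 3 genes most like FTL and TFRC. PICALM, TAX1BP1, FDX1, IBA57, BOLA1, ABCB10, HSPA9, CIAO1, CIAPIN1, BLVRA, TF, PCBP2 and the uncalled genes of the NRF2 list were named after their values were seen. Some genes that the rule would name are not reported here.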

Additional observations from a re-analysis of the deposited data

How the results depend on the processing

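Over 15 alternatives, 127 of 135 values of the tested members stayed on the same side of the threshold and no called value changed direction. The log2 fold change ranged from 0.61 to 0.72 for FTL, from 0.34 to 0.38 for FTH1 and from -0.38 to -0.33 for TFRC, and calls changed for PCBP1, SLC11A2 and NCOA4 alone among the members. ACO1, never called, changed sign within -0.03 to 0.06. Member calls numbered 2 to 3 higher and 3 to 5 lower. The 5 ratios moved by less than the larger group SD, with TPM in place of CPM too. FTL to SLC40A1 was not recomputed, because SLC40A1 has 1 to 5 counts.

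Genes called lower numbered 1343 by limma on FPKM (2118 in the main test), and 61.1% of calls were higher with library size alone, as compared with 52.9%. Genes past the study's criteria, 126 higher and 16 lower, became 246 and 78 without a filter, 79 and 4 with at least 10 counts in every sample, 36 and 1 on log2 TPM with pseudocount 1, 30 and 0 on FPKM, and 8 lower with pseudocount 0.1, where fewer low genes pass or the pseudocount shrinks their folds. Leaving out a sample gave 21 to 31 lower. The iron lists had 5 genes lower by DESeq2, and 5 to 9 with a sample left out. Transcript calls, 298 higher and 248 lower, became 502 and 430 with at least 10 counts in every sample, and 46 to 83 higher and 12 to 49 lower with a sample left out. Member transcripts then numbered 0 to 2 higher and 0 to 1 lower, and 1 lower without a filter. The cause for the transcripts was not tested.

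The labels did not say whether same-numbered samples shared a culture. Their deviations from the group mean correlated by 0.00866, 0.0694 and 0.0302, which cannot decide this with 3 samples a group. With the replicate number as a block, edgeR called 2259 genes higher and 1954 lower and the same count of members (2 higher, 4 lower). It called 0 transcripts in either direction, 0 of the members' among them, while 1863 were higher and 1898 lower at an unadjusted p below 0.05, 11 of them of the members. Precision is limited by 3 samples a group and by counts under 6 for SLC40A1.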

Other observations

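Of the minor transcripts of TFRC, NM_003234 had 174, 153 and 149 counts in control and 69, 83.1 and 61 counts after 4HC, while NM_001313965 had 52, 23 and 53.6 counts in control and 97.2, 105 and 135 counts after 4HC. The groups did not overlap in either transcript, neither was called (adjusted p of 0.0701 and 0.228 by edgeR), and both hold the 4 TFRC sites in their GENCODE match. Together they were under 4% of the counts of the gene, and they were picked after their values had been seen.

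For SLC40A1, the few counts were assigned to NM_014585 in 1 treated sample, with 5 counts, and to XM_005246505 in the other 5 samples, with 1 to 5 counts. For ACO1, XM_011517888 held 87.4% of the counts in control and 90.1% after 4HC.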
